A study of Mus musculus with 8 samples.

Results

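The genes described here make, sense, move and export sterols. They were taken by name, with earlier results of these data known, as a list of 30 of the 35498 genes in the deposited tables. All 30 were among the 16309 genes with enough reads to be tested. By role, 8 are enzymes of the mevalonate arm, 11 are enzymes of the squalene and sterol arm, 5 control the transcription factor SREBP2, 4 act in sterol uptake and transport, and 2 export sterols. Bulk RNA sequencing measured them in sarcoma cells sorted from mouse tumours on a fluorescent marker, in 8 libraries, to see how tumour Mif affects pathways within the tumour cells. The product of Mif is a secreted cytokine, macrophage migration inhibitory factor.

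All 4 groups share 1 background, a C57BL/6 sarcoma made from mesenchymal stem cells that lack p53 and overexpress Ccne1, grown subcutaneously on polyurethane scaffolds in recipient mice. The 2 sgMif libraries came from cells with Cas9 and a guide RNA against Mif (labelled Mif knockout), and the 2 sgSCR libraries from cells with Cas9 and a control guide. The 2 shMif libraries came from cells with a short hairpin RNA against Mif (labelled Mif knockdown), and the 2 shSCR libraries from cells with a control hairpin. The series' design text gives Cas9 for the hairpin cells as well, while the growth protocol gives it for the guide cells alone. The sources used here give neither the guide and hairpin sequences nor the number of clones in a line nor the age of the recipients. They also do not tie the 2 libraries of any group to separate tumours or mice, and each p-value reflects no more than library-to-library spread, some of which may be technical.

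Cells build cholesterol from acetyl-CoA through mevalonate, farnesyl diphosphate and squalene, and dividing cells draw on it for new membrane. SREBP2 sits in the endoplasmic reticulum with its escort SCAP, is held there by INSIG proteins when sterols are plentiful, and is released to the nucleus when sterols run short, where it switches on genes of sterol synthesis and uptake. Oxysterols act the other way, through the LXR receptors, which switch on the exporters Abca1 and Abcg1 and the ubiquitin ligase Mylip.

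The libraries held 19042235 to 51819308 reads on genes. Mif, the targeted gene (chr10:75859353-75860240, minus strand, build mm10), stood at 221 and 222 CPM (counts-per-million units, scaled between libraries) in sgMif, against 377 and 455 CPM in sgSCR. It was lower in both sgMif libraries but did not pass the test (log2 fold change -0.91 ± 0.32 SE with adjusted p = 0.215 in edgeR). Mif stood at 277 and 222 CPM in the libraries labelled shMif, against 170.2 and 375 CPM in shSCR, which overlap (log2 fold change -0.13 ± 0.32 SE with adjusted p = 0.925 in edgeR). The Mif transcript therefore did not show the knockdown, and these 2 libraries are called the libraries labelled shMif. When 1 library at a time was left out, its log2 fold change spanned -1.04 to -0.75 in sgMif against sgSCR, passing without shSCR 1 or shSCR 2 (edgeR adjusted p = 0.0296 and 0.0322), and -0.59 to 0.55 in the hairpin pair, positive without labelled shMif 2 or shSCR 2. Reads on olfactory receptor genes, odorant receptors of sensory neurons, came to 1330 to 2544 CPM in 5 libraries and to 380 to 553 CPM in sgMif 2, labelled shMif 2 and shSCR 2. Within those 5 libraries Mif was higher in labelled shMif 1 than in shSCR 1 (log2 fold change 0.70 with adjusted p = 0.0377 in edgeR), where the spread rests on the 2 sgSCR libraries alone. All 10 sarcoma and mesenchymal markers were present, at summed levels of 29716 to 53741 CPM.

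In sgMif, 8 of the 19 sterol-making enzymes rose relative to sgSCR. Of all 30 genes, 10 rose and 0 fell (edgeR, adjusted p under 0.05), where 0.368% of all tested genes rose and 0.619% fell. By role, 5 of the 8 mevalonate enzymes, 3 of the 11 squalene and sterol enzymes, 1 of 5 control genes and 1 of 4 uptake and transport genes rose. At an unadjusted p under 0.05, 19 were higher and 2 lower, where 9.09% and 7.51% of all genes were, and DESeq2 called 17 higher and 1 lower, where it called 6.07% of all genes in either direction. The median log2 fold change was 0.94 over the 30 genes and 1.32 over the 19 enzymes, against -0.01 over all tested genes. Both sgMif libraries lay above both sgSCR libraries for 19 of the 30 genes, where 27.1% of all genes did, and below both for 5, where 24.2% did. The 2 sgMif libraries exceeded every one of the other 6 libraries for 18 of the 30 genes, including 14 of the 19 enzymes, where 9.54% of all genes did. They lay below all 6 for Npc1, Npc2 and Abca1, 3 of 30, where 7.54% of all genes did. The calls rest on both libraries of each group: 0 genes passed without either sgMif library or either sgSCR library, while 4 passed without labelled shMif 1, 3 without labelled shMif 2 and 15 without either shSCR library, which added Mvd, Sqle, Hsd17b7, Sc5d and Srebf2. The count was 3 with a term for the olfactory read class and 2 with counts scaled by transcript length. The share of all genes called was not worked out for these 2 settings or with 1 library left out. These counts therefore have no background to be set against.

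**Figure D1:**
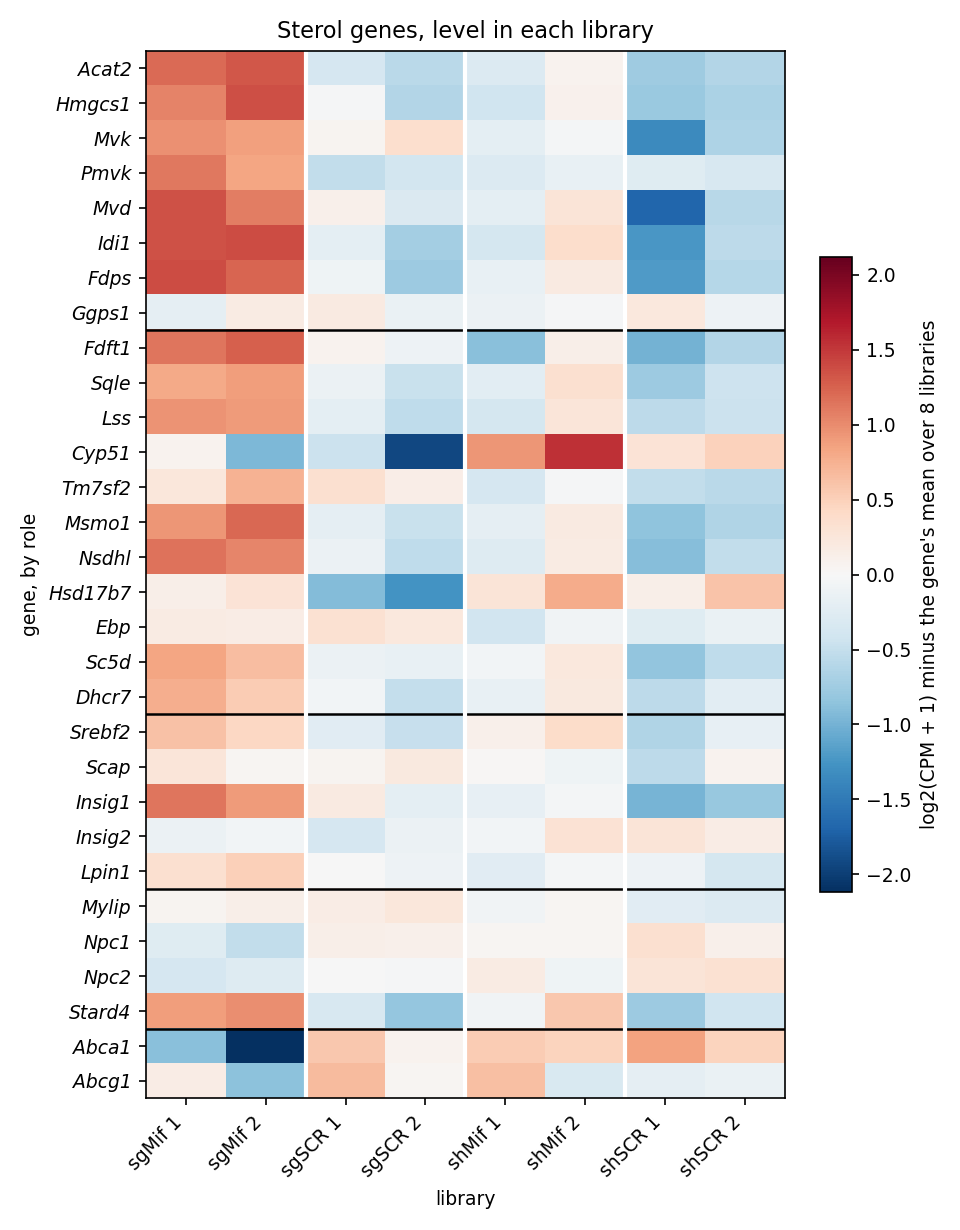
Level of each of the 30 genes (rows, grouped by role from the mevalonate arm at the top to export at the bottom) in each of the 8 libraries (columns), as log2(CPM + 1) minus the gene's mean over the 8 libraries. The sgMif columns are red for most enzymes and blue for Npc1, Npc2 and Abca1. Cyp51 and Hsd17b7 follow another order. The hairpin libraries are the highest for Cyp51, and the sgSCR libraries are the lowest for Hsd17b7.

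The mevalonate arm turns acetyl-CoA into farnesyl diphosphate. Its 8 enzymes had a median log2 fold change of 1.50 in sgMif against sgSCR, and 7 of 8 were positive. Acat2, the cytosolic thiolase of the first step (chr17:12942890-12960747, minus strand, build mm10), had 119 and 128 CPM in sgMif, against 39.3 and 34.1 CPM in sgSCR. Its rise was 3.36-fold (log2 fold change 1.75 ± 0.17 SE with adjusted p = 0.0148 in edgeR). Both sgMif libraries were about alike, and the lower of them stood far above the higher sgSCR library. Hmgcs1, the HMG-CoA synthase (chr13:119690379-119708260, plus strand), had 300.2 and 374 CPM in sgMif, against 143 and 93.5 CPM in sgSCR, a 2.85-fold rise (log2 fold change 1.51 ± 0.25 SE with adjusted p = 0.0394 in edgeR). The sgSCR libraries differed from each other more here than for Acat2, and sgSCR 1 was the higher. Pmvk, the kinase of phosphomevalonate (chr3:89454541-89469013, plus strand), had 52.0 and 42.4 CPM in sgMif, against 16.0 and 17.5 CPM in sgSCR, a 2.81-fold rise (log2 fold change 1.49 ± 0.17 SE with adjusted p = 0.0189 in edgeR).

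Idi1, which isomerises isopentenyl diphosphate (chr13:8885501-8892451, plus strand), had the highest fold of the arm, 3.54-fold, at 141 and 145 CPM in sgMif, against 47.7 and 33.0 CPM in sgSCR (log2 fold change 1.82 ± 0.32 SE with adjusted p = 0.0463 in edgeR). Fdps, which joins isoprene units into farnesyl diphosphate (chr3:89093588-89101959, minus strand), had 393 and 354 CPM in sgMif, against 141 and 86.9 CPM in sgSCR, a 3.28-fold rise (log2 fold change 1.71 ± 0.28 SE with adjusted p = 0.0394 in edgeR). For both genes the sgMif libraries were close together and sgSCR 1 was above sgSCR 2. Mvk, mevalonate kinase (chr5:114444269-114460591, plus strand), had 34.9 and 32.5 CPM in sgMif, against 18.0 and 22.4 CPM in sgSCR and Mvd, which decarboxylates mevalonate diphosphate, had 41.9 and 34.7 CPM in sgMif, against 17.2 and 12.8 CPM in sgSCR. Neither passed, although the groups did not overlap for either (Mvk log2 fold change 0.74 ± 0.26 SE, adjusted p = 0.21; Mvd 1.35 ± 0.39 SE, adjusted p = 0.142). Ggps1 makes geranylgeranyl diphosphate for protein prenylation, off the route to sterols (chr13:14050659-14063488, minus strand). It stood at 21.6 and 28.1 CPM in sgMif, 28.3 and 22.3 in sgSCR, 22.5 and 24.5 in the libraries labelled shMif and 29.1 and 22.9 in shSCR. The groups overlapped in full (log2 fold change -0.03 ± 0.21 SE with adjusted p = 0.966 in edgeR), and leaving out 1 library at a time moved its log2 fold change over -0.22 to 0.15. It shares 257 bases with Arid4b on the opposite strand, a gene of 49.9 to 87.0 CPM. When 1 library at a time was left out, the log2 fold changes of the 5 called genes spanned 1.67 to 1.85 for Acat2, 1.26 to 1.84 for Hmgcs1, 1.34 to 1.64 for Pmvk, 1.60 to 2.11 for Idi1 and 1.43 to 2.10 for Fdps.

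Some of these reads could be shared with other genes. Acat2 is 97.7% identical to Acat3 over 1477 bases, and Acat3 held at most 1.92 CPM in any library. Acat2 also matches Tcp1, a chaperonin subunit, over 445 bases on the opposite strand (98.65% identical). Tcp1 held 338 to 481 CPM, above Acat2 in every library, so reads of the pair cannot be told apart over those bases without the strand setting of the counting, which is not given. Idi1 is identical over 684 bases to the processed pseudogene Gm13502, which held 0 to 14.0 CPM. Fdps overlaps Gm43738 on the same strand, at 3.32 CPM or less, and resembles 4 processed pseudogenes that held less still.

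**Figure D2:**
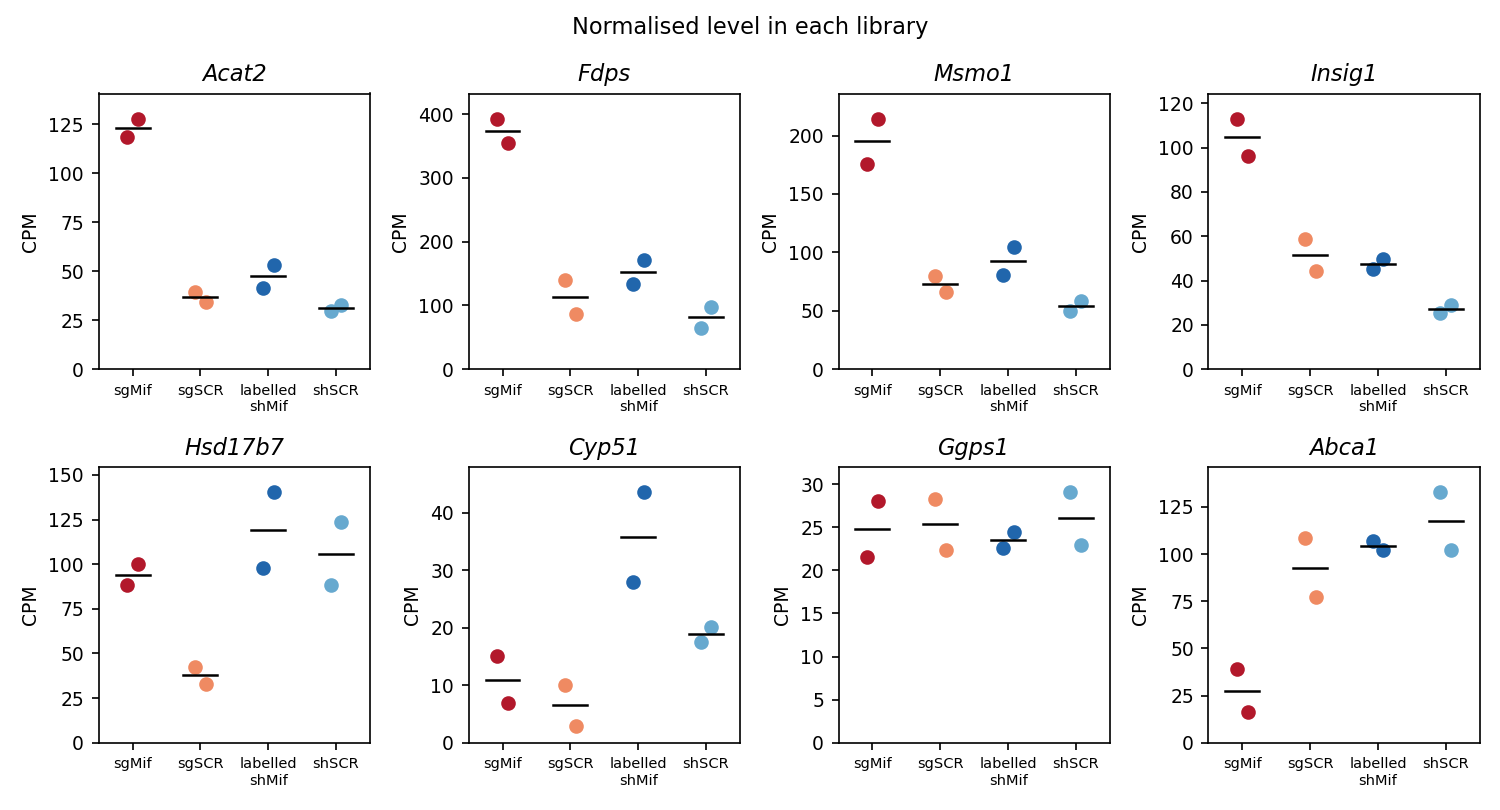
Normalised level (CPM, linear axes from 0) of 8 of the genes in each library, with sgMif, sgSCR, the libraries labelled shMif and shSCR from left to right. Each dot is 1 library and each bar the mean of 2. For Acat2, Fdps, Msmo1 and Insig1 the sgMif dots stand above all others, for Abca1 below all others, and for Ggps1 the 4 groups overlap.

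The squalene and sterol arm carries farnesyl diphosphate through squalene and lanosterol to cholesterol. Its 11 enzymes had a median log2 fold change of 1.14, with 10 of 11 positive and 3 called. Msmo1, a monooxygenase that removes sterol methyl groups (chr8:64718139-64733792, minus strand), had 176 and 215 CPM in sgMif, against 80.0 and 65.9 CPM in sgSCR, a 2.68-fold rise (log2 fold change 1.42 ± 0.19 SE with adjusted p = 0.032 in edgeR). Nsdhl, a dehydrogenase of the same demethylation (chrX:72918557-72958514, plus strand), had 64.0 and 59.1 CPM in sgMif, against 26.2 and 19.2 CPM in sgSCR, a 2.71-fold rise (log2 fold change 1.44 ± 0.24 SE with adjusted p = 0.04 in edgeR). Its log2 fold change was the highest of the arm. Lss, which closes the sterol rings to form lanosterol (chr10:76531588-76557138, plus strand), had 61.6 and 59.6 CPM in sgMif, against 27.0 and 21.3 CPM in sgSCR, a 2.50-fold rise (log2 fold change 1.32 ± 0.23 SE with adjusted p = 0.0451 in edgeR). In each of the 3 genes the sgMif libraries lay above both sgSCR libraries and sgSCR 1 lay above sgSCR 2.

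Of the other 8 enzymes of this arm, 7 had a positive log2 fold change without passing, and the groups did not overlap for 5 of them. Hsd17b7, a reductase of the demethylation steps (chr1:169949535-169969241, minus strand), had 88.5 and 99.9 CPM in sgMif, against 42.3 and 33.1 CPM in sgSCR (log2 fold change 1.32 ± 0.24 SE with adjusted p = 0.051 in edgeR). Sqle, the oxygen-dependent squalene epoxidase, had 158 and 167 CPM in sgMif, against 82.1 and 64.7 CPM in sgSCR (log2 fold change 1.14 ± 0.22 SE with adjusted p = 0.0589 in edgeR). Fdft1, the squalene synthase that commits the flow to sterols, had 119.9 and 131 CPM in sgMif, against 57.2 and 49.8 CPM in sgSCR (log2 fold change 1.23 ± 0.31 SE with adjusted p = 0.103 in edgeR). All 3 genes were higher in both sgMif libraries than in either sgSCR library. Fdft1 shares 774 bases with Ctsb on the opposite strand, a gene of 634 to 1362 CPM, and the strand setting of the counting is not given, so reads of the pair cannot be told apart there. Sc5d, a sterol desaturase, had 40.6 and 35.8 CPM in sgMif, against 20.2 and 19.8 CPM in sgSCR (log2 fold change 0.93 ± 0.18 SE with adjusted p = 0.0615 in edgeR). Dhcr7, a terminal sterol reductase, had 42.7 and 36.0 CPM in sgMif, against 23.6 and 17.1 CPM in sgSCR (log2 fold change 0.95 ± 0.23 SE with adjusted p = 0.0979 in edgeR). The direction of Dhcr7 turned to -0.80 with counts scaled by transcript length, where sgSCR 1 held 69.4 TPM (transcripts-per-million units, per length) and the other 7 libraries at most 25.1 TPM.

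Low and even members completed the arm. Cyp51, the lanosterol demethylase, stood at 15.0 and 6.88 CPM in sgMif, 10.1 and 2.99 in sgSCR, 28.1 and 43.6 in the libraries labelled shMif and 17.5 and 20.2 in shSCR. The first library of each guide group was the higher, so that sgMif and sgSCR overlapped (log2 fold change 0.71 ± 0.55 SE with adjusted p = 0.547 in edgeR). Tm7sf2, a sterol reductase, had 3.61 and 5.48 CPM in sgMif, against 3.95 and 3.29 CPM in sgSCR (log2 fold change 0.33 ± 0.39 SE with adjusted p = 0.71 in edgeR), and it shares 532 bases with Vps51 on the same strand, a gene of 23.6 to 47.7 CPM. Ebp, the sterol isomerase (chrX:8185329-8193512, minus strand), had the lowest log2 fold change of the arm and stood at 23.7 and 23.6 CPM in sgMif, 26.4 and 24.7 in sgSCR, 15.6 and 19.9 in the libraries labelled shMif and 17.4 and 18.8 in shSCR. Both sgMif libraries were just below both sgSCR libraries (log2 fold change -0.11 ± 0.18 SE with adjusted p = 0.789 in edgeR), and with counts scaled by transcript length the value was 0.28.

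The promoters of 5 of these genes are shown because 3 of them (Hmgcs1, Idi1 and Msmo1) rose in sgMif, Srebf2 encodes the factor that acts on the pathway, and Hsd17b7 followed another order in the hairpin libraries. The sequences are RefSeq's for build GRCm38.p6, each of 300 bases, running 5′ to 3′ from 250 bases before RefSeq's start site to 50 after it. That site differs from the start of the GENCODE gene given with each name. In bases downstream of the GENCODE start it lay at -28 for Hmgcs1, 36 for Hsd17b7, 88 for Srebf2, 105 for Idi1 and 214 for Msmo1. Capitals mark the sterol regulatory element TCACNCCAC, its looser core TCANNCCA, which lies inside it, and the NF-Y box CCAAT, each searched on both strands, so that ATTGG is the box on the other strand.
Hmgcs1 (chr13:119690101-119690400, plus strand): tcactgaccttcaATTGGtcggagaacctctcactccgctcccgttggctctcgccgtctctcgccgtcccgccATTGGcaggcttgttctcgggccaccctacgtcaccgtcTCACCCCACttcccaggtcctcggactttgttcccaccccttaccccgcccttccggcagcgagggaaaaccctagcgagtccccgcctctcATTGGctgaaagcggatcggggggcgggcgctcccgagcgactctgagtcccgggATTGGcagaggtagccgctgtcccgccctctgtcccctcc
Idi1 (chr13:8885356-8885655, plus strand): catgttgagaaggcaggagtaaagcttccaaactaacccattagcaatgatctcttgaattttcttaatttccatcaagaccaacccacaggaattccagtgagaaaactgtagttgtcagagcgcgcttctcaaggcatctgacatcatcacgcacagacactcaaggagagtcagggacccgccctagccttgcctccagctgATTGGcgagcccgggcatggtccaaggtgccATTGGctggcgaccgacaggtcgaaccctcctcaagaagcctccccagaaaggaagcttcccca
Msmo1 (chr8:64733529-64733828, minus strand): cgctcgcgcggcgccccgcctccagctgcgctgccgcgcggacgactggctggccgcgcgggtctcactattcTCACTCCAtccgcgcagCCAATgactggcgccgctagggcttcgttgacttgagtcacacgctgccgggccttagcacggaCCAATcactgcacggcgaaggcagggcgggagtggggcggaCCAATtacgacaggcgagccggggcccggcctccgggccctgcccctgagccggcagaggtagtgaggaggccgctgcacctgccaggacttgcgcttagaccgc
Hsd17b7 (chr1:169969156-169969455, minus strand): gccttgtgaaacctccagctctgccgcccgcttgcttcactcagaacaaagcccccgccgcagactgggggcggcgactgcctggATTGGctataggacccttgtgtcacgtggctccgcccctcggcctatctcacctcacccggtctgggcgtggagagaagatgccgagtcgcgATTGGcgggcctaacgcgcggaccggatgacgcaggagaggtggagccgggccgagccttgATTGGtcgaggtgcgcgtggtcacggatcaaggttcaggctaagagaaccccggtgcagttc
Srebf2 (chr15:82147019-82147318, plus strand): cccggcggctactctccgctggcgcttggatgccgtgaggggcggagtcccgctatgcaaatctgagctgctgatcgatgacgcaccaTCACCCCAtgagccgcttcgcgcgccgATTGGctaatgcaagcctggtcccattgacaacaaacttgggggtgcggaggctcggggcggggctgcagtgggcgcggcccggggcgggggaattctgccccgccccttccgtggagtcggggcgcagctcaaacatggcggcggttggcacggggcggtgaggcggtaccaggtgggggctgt

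Hmgcs1 held the full element, its first base at position -137 counted from RefSeq's start site, and NF-Y boxes at -237, -176, -45 and 11. Srebf2 and Msmo1 held the looser core, at -162 and -177. Idi1 and Hsd17b7 held NF-Y boxes and neither form of the element in these windows. The table had 30 windows for 24 of the 30 genes. The full element was in 1 of the 30 windows, against 1.24% of all 32851 promoter windows, the looser core in 5, against 15.7%, and the NF-Y box in 20, against 37.4%. These matches describe letters in a window.

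The genes that control SREBP2 had a smaller median fold change than the enzymes. Their median log2 fold change in sgMif against sgSCR was 0.50, and 1 of 5 rose. Insig1, which holds SCAP in the endoplasmic reticulum and is itself switched on by SREBP2 (chr5:28071363-28078662, plus strand), had 113 and 96.0 CPM in sgMif, against 58.7 and 44.1 CPM in sgSCR, a 2.03-fold rise (log2 fold change 1.02 ± 0.18 SE with adjusted p = 0.0481 in edgeR). Both sgMif libraries were above all 6 others. This call was the weakest of the 10 and was also lost under relative log expression scaling, with protein-coding transcripts only and with the 4 guide libraries fitted alone. Srebf2, the gene of SREBP2 (chr15:82147181-82205379, plus strand), had 427 and 374 CPM in sgMif, against 234 and 198 CPM in sgSCR, with no overlap but short of the threshold (log2 fold change 0.89 ± 0.19 SE with adjusted p = 0.0772 in edgeR). Lpin1, a phosphatidate phosphatase whose nuclear form lowers SREBP activity, had 31.5 and 35.7 CPM in sgMif, against 24.6 and 23.0 CPM in sgSCR, again with no overlap (log2 fold change 0.50 ± 0.17 SE with adjusted p = 0.206 in edgeR).

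Insig2, the second INSIG gene, overlapped between the groups at 22.5 and 23.7 CPM in sgMif, against 19.0 and 22.5 CPM in sgSCR (log2 fold change 0.16 ± 0.18 SE with adjusted p = 0.704 in edgeR). Scap, the escort of SREBP2 (chr9:110333288-110384950, plus strand), had the lowest log2 fold change of the 5 and stood at 72.0 and 62.4 CPM in sgMif, 63.1 and 69.4 in sgSCR, 61.4 and 56.4 in the libraries labelled shMif and 40.6 and 63.6 in shSCR. The guide groups overlapped (log2 fold change 0.02 ± 0.21 SE with adjusted p = 0.977 in edgeR), and the sign of so small a value turned under relative log expression scaling and DESeq2 (-0.0012 and -0.0013), with protein-coding transcripts only (-0.023) and with the class term (-0.029). Thus Insig1 was called and Insig2 was not, but the difference between the 2 genes was not tested.

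Uptake and transport genes did not move as 1 group, with a median log2 fold change of -0.20. Stard4, a soluble protein that carries sterol between membranes and a target of SREBP2, had 56.3 and 60.3 CPM in sgMif, against 23.5 and 16.6 CPM in sgSCR, a 2.90-fold rise (log2 fold change 1.54 ± 0.27 SE with adjusted p = 0.0461 in edgeR). Both sgMif libraries stood above all 6 others. Npc1 and Npc2 pass cholesterol out of the lysosome. Npc1 had the lowest value of the 4 and stood at 61.0 and 50.5 CPM in sgMif, 79.0 and 78.7 in sgSCR, 75.0 and 75.2 in the libraries labelled shMif and 92.7 and 78.6 in shSCR (log2 fold change -0.50 ± 0.15 SE with adjusted p = 0.154 in edgeR). Its sgMif libraries were below all 6 others, and it shares 511 bases with Rmc1 on the opposite strand. Npc2 had 146 and 154 CPM in sgMif, against 186 and 184 CPM in sgSCR (log2 fold change -0.30 ± 0.13 SE with adjusted p = 0.309 in edgeR), also below all 6 others. Mylip, which marks lipoprotein receptors for degradation, had 43.9 and 46.1 CPM in sgMif, against 47.0 and 50.2 CPM in sgSCR (log2 fold change -0.11 ± 0.13 SE with adjusted p = 0.708 in edgeR).

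Both exporters had negative values, and neither passed. Abca1, which loads cholesterol onto apolipoproteins (chr4:53030787-53159895, minus strand), had 39.3 and 16.1 CPM in sgMif, against 108 and 77.1 CPM in sgSCR, 3.38-fold lower (log2 fold change -1.75 ± 0.38 SE with adjusted p = 0.0764 in edgeR). The 2 sgMif libraries differed from each other more than 2-fold, yet both were below every other library. DESeq2 called Abca1 lower, and the log2 fold change spanned -2.52 to -1.23 when 1 library at a time was left out. Abcg1, which moves cholesterol onto mature lipoproteins (chr17:31057675-31117988, plus strand), was near the limit of use at 3.56 and 1.24 CPM in sgMif, 5.48 and 3.19 in sgSCR, 5.35 and 2.28 in the libraries labelled shMif and 2.57 and 2.70 in shSCR. The guide groups overlapped (log2 fold change -0.87 ± 0.62 SE with adjusted p = 0.509 in edgeR).

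**Figure D3:**
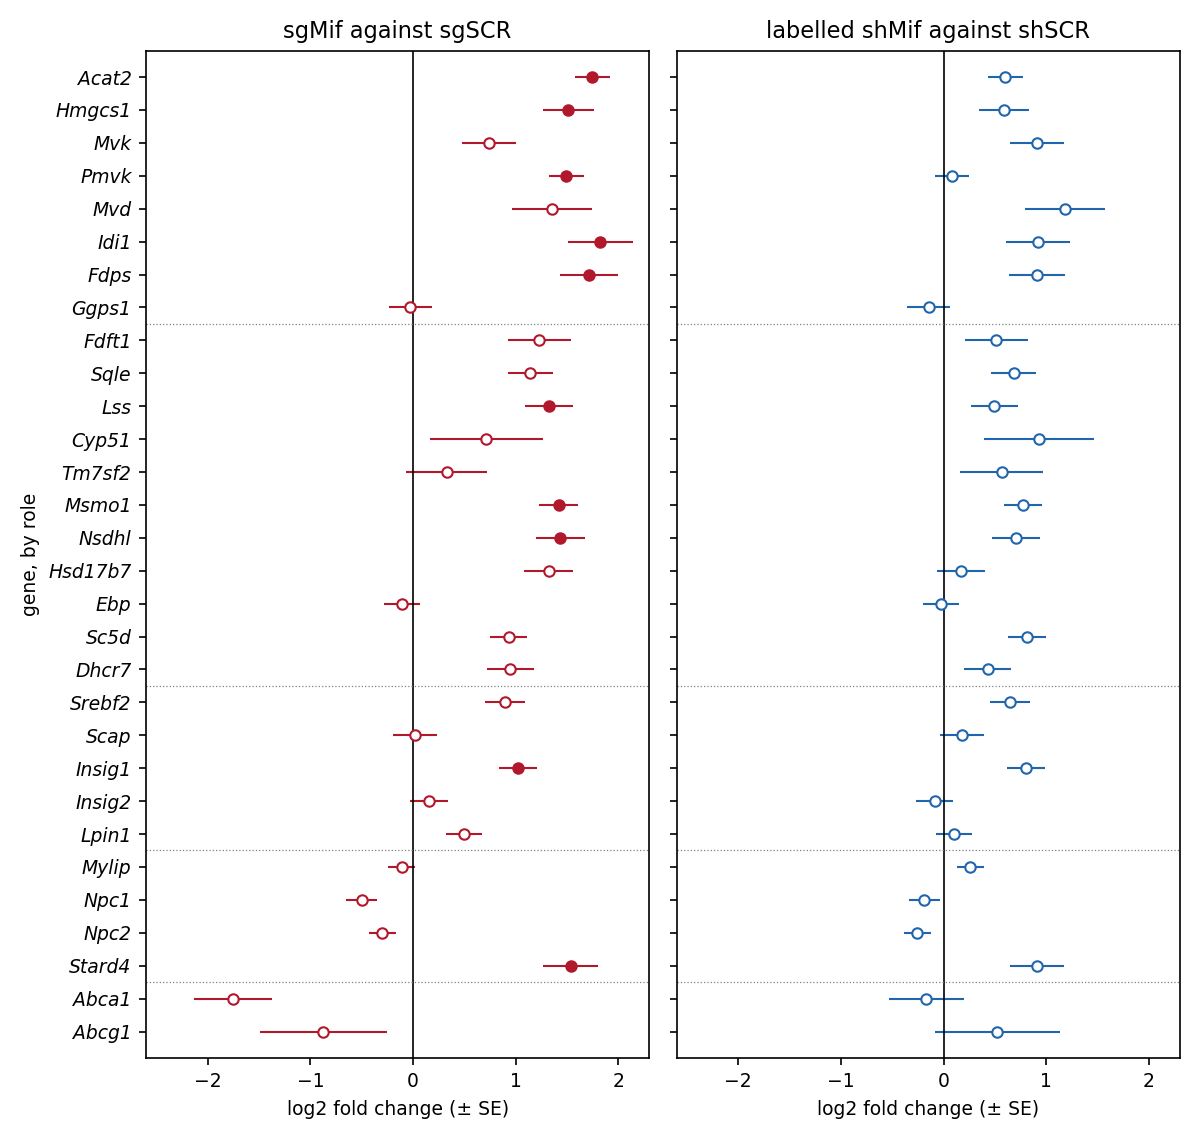
Log2 fold change of each of the 30 genes (rows, by role) with its SE, for sgMif against sgSCR on the left and the libraries labelled shMif against shSCR on the right. Filled points passed an adjusted p of 0.05, 10 on the left and 0 on the right, and most enzymes lie right of 0 in both panels.

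The rest of the pathway was taken as 6 further lists, of which the lipoprotein receptors and adaptors held the only edgeR calls in sgMif against sgSCR. Of 12 such genes 1 rose and 1 fell, where 0.368% of all tested genes rose and 0.619% fell. DESeq2 called 2 of them higher and 2 lower, where it called 6.07% of all genes in either direction. Lrp8, a receptor for reelin and apolipoprotein-bearing particles, had 192 and 161 CPM in sgMif, against 75.8 and 68.0 CPM in sgSCR, a 2.45-fold rise (log2 fold change 1.29 ± 0.22 SE with adjusted p = 0.0405 in edgeR). Vldlr, a related receptor, had 3.93 and 4.51 CPM in sgMif, against 16.4 and 21.6 CPM in sgSCR, 4.49-fold lower (log2 fold change -2.17 ± 0.24 SE with adjusted p = 0.0189 in edgeR). The groups did not overlap for either gene, where 27.1% of all genes lay above sgSCR and 24.2% below it without overlap. When 1 library at a time was left out, neither call held in every fit. The log2 fold change then spanned 1.16 to 1.43 for Lrp8 and -2.36 to -1.94 for Vldlr.

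The other 5 lists had 0 calls by edgeR. DESeq2 called 1 gene higher and 3 lower among them, where it called 6.07% of all genes in either direction. Over all tested genes 9.09% were higher and 7.51% lower at an unadjusted p under 0.05, so that a count of 1 or 2 in lists of 10 to 19 genes lies near the background. Of 15 genes of SREBP processing and sterol-sensing turnover, 2 were higher and 0 lower at an unadjusted p under 0.05, with a median log2 fold change of 0.08. Erlin2, part of the complex that sends sterol-sensing proteins for degradation, had 56.1 and 61.9 CPM in sgMif, against 40.5 and 41.0 CPM in sgSCR (log2 fold change 0.53 ± 0.15 SE with adjusted p = 0.128 in edgeR). Faf2, which acts in the same degradation route, had 71.1 and 79.6 CPM in sgMif, against 62.9 and 57.0 CPM in sgSCR (adjusted p = 0.29). Of 13 tested genes of isoprenoid use and prenylation, 3 were higher and 1 lower at an unadjusted p under 0.05, with a median of 0.20. Rabggta, a subunit of the transferase that prenylates Rab proteins, had 23.6 and 22.8 CPM in sgMif, against 34.5 and 37.9 CPM in sgSCR (log2 fold change -0.64 ± 0.15 SE with adjusted p = 0.0861 in edgeR), while Pdss1, which makes the tail of coenzyme Q, had 9.31 and 9.90 CPM in sgMif, against 4.83 and 4.79 CPM in sgSCR (log2 fold change 1.00 ± 0.27 SE with adjusted p = 0.125 in edgeR). The groups did not overlap for these 4 genes, which were named for their small p. Of all tested genes, 27.1% lay above sgSCR and 24.2% below it without overlap.

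Of 12 genes of sterol esterification, hydrolysis and oxysterols, 1 was higher and 3 lower at an unadjusted p under 0.05, with a median of -0.55. Lipa, the lysosomal acid lipase, had 23.6 and 23.8 CPM in sgMif, against 37.0 and 34.0 CPM in sgSCR (log2 fold change -0.58 ± 0.15 SE with adjusted p = 0.115 in edgeR). Hsd3b7, a bile acid synthesis enzyme, had 31.4 and 32.1 CPM in sgMif, against 41.2 and 49.8 CPM in sgSCR (log2 fold change -0.52 ± 0.16 SE with adjusted p = 0.165 in edgeR), and its direction turned to 0.065 with counts scaled by transcript length. Of 19 sterol transfer proteins, 1 was higher and 3 lower at an unadjusted p under 0.05, with a median of -0.02. Tmem97, which binds Npc1, had 66.4 and 52.3 CPM in sgMif, against 30.7 and 24.7 CPM in sgSCR (log2 fold change 1.10 ± 0.22 SE with adjusted p = 0.0675 in edgeR), and Stard5, of the same protein family as Stard4, had 4.70 and 6.74 CPM in sgMif, against 11.4 and 13.1 CPM in sgSCR (log2 fold change -1.10 ± 0.27 SE with adjusted p = 0.105 in edgeR). Of 10 tested LXR factors and targets, 1 was higher and 1 lower at an unadjusted p under 0.05, with a median of -0.14. Rxra, the partner receptor of LXR, had 58.4 and 67.6 CPM in sgMif, against 45.4 and 48.7 CPM in sgSCR (log2 fold change 0.42 ± 0.15 SE with adjusted p = 0.215 in edgeR), and Nr1h3, the gene of LXR alpha, had 2.19 and 1.71 CPM in sgMif, against 3.60 and 4.59 CPM in sgSCR (log2 fold change -1.07 ± 0.42 SE with adjusted p = 0.255 in edgeR).

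In sgMif against sgSCR, markers of dividing cells were higher beside the enzymes and markers of macrophages lower. The 19 enzymes summed to 1896 and 1978 CPM in sgMif, 849 and 645 in sgSCR, 815 and 1139 in the libraries labelled shMif and 578 and 722 in shSCR. All 10 mitosis markers had a positive log2 fold change in sgMif against sgSCR, 4 of them called, where 0.368% of all genes were called higher, and they summed to 1736 and 2052 CPM in sgMif, 1063 and 843 in sgSCR, 939 and 1111 in the libraries labelled shMif and 1179 and 955 in shSCR. The sgMif libraries were the highest in both sums. Of 18 macrophage markers, 17 had a negative log2 fold change in sgMif against sgSCR and 3 were called lower, where 0.619% of all genes were. Their sums were 197 and 161 CPM in sgMif, 592 and 304 in sgSCR, 630.1 and 327 in the libraries labelled shMif and 363 and 388 in shSCR. Cd163, which takes up haemoglobin into macrophages, was at 0 in both sgMif libraries, against 103 and 24.9 CPM in sgSCR. It was also near 0 in the hairpin libraries, at 0.103 and 0.341 CPM in those labelled shMif and 0.596 and 0.0202 in shSCR. Mrc1, the mannose receptor, had 2.01 and 5.59 CPM in sgMif and 107 and 34.0 in sgSCR. Its levels were 18.8 and 13.9 CPM in the libraries labelled shMif and 15.5 and 12.4 in shSCR. For both genes only the sgSCR libraries were high. Lyz2, another of the 18 markers, was not lower in sgMif, at 64.5 and 30.6 CPM against 38.2 and 30.3 CPM in sgSCR. The T and B cell markers summed to 5.41 to 22.2 CPM and the endothelial markers to 38.3 to 279 CPM over the 8 libraries. In the hairpin pair 7 of the 10 mitosis markers (median log2 fold change 0.08) and 17 of the 18 macrophage markers (median 0.32) were positive, with 0 called. The part of dividing cells or of macrophages in the sterol values was not tested, and in bulk RNA fewer cells of a type and less RNA per cell cannot be told apart.

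**Figure D4:**
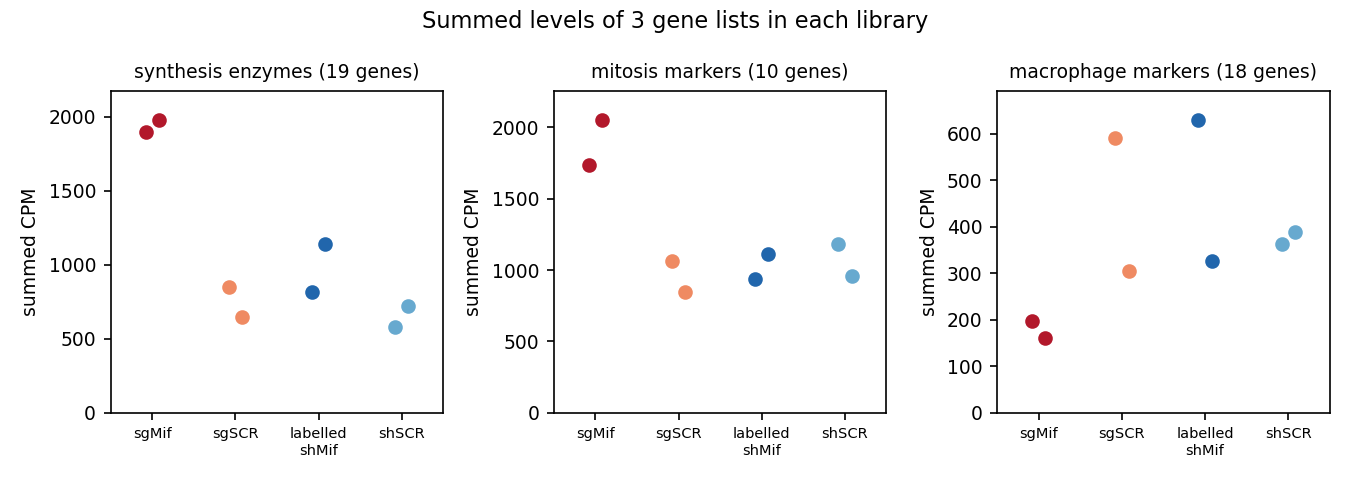
Summed CPM (linear axes from 0) of the 19 synthesis enzymes, 10 mitosis markers and 18 macrophage markers in each library, with 1 dot a library and the groups sgMif, sgSCR, labelled shMif and shSCR from left to right. The sgMif libraries are the highest of the 8 for the enzymes and the mitosis markers and the lowest for the macrophage markers.

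In the hairpin pair the enzymes were mostly higher in the libraries labelled shMif, without a call. Of the 30 genes 0 rose and 0 fell by edgeR, where 0.0184% and 0% of all tested genes did. At an unadjusted p under 0.05, 13 were higher and 0 lower, where 4.18% and 5.08% of all genes were, and DESeq2 called 4 higher, where it called 1.12% of all genes. For Mvk the log2 fold change spanned 0.58 to 1.35 when 1 library at a time was left out. The median log2 fold change was 0.54 over the 30 genes and 0.60 over the 19 enzymes, against 0.03 over all genes, and 17 of the 19 enzymes were positive. The 10 sarcoma and mesenchymal markers had a median of 0.64 in the same pair, with 8 positive, 5 higher at an unadjusted p under 0.05, 0 called by edgeR and 4 called higher by DESeq2. They summed to 39828 and 53741 CPM in the libraries labelled shMif, against 29716 and 35939.8 CPM in shSCR, and their part in the sterol values was not tested. Both libraries labelled shMif lay above both shSCR libraries for 18 of 30 genes, where 19.4% of all genes did, and below both for Npc1 and Npc2, where 22.3% did.

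Mvd had the highest log2 fold change of the 30, with 13.6 and 19.4 CPM in the libraries labelled shMif, against 4.25 and 10.3 CPM in shSCR (log2 fold change 1.18 ± 0.39 SE with adjusted p = 0.481 in edgeR). shSCR 1 was far below the other 3 libraries. Fdps had 134 and 171 CPM in the libraries labelled shMif, against 64.4 and 98.0 CPM in shSCR (log2 fold change 0.91 ± 0.27 SE with adjusted p = 0.462 in edgeR), and Idi1 had 42.0 and 71.1 CPM in the libraries labelled shMif, against 22.8 and 36.9 CPM in shSCR (log2 fold change 0.92 ± 0.31 SE with adjusted p = 0.488 in edgeR). For both, the 2 groups did not overlap, and for Idi1 the lower library labelled shMif was close to the higher shSCR library. Acat2 had 41.4 and 53.4 CPM in the libraries labelled shMif, against 29.8 and 32.7 CPM in shSCR (log2 fold change 0.60 ± 0.17 SE with adjusted p = 0.448 in edgeR), and Hmgcs1 had 108 and 154 CPM in the libraries labelled shMif, against 83.5 and 91.0 CPM in shSCR (log2 fold change 0.59 ± 0.24 SE with adjusted p = 0.527 in edgeR). Pmvk, among the clearest rises in sgMif, had 19.0 and 20.8 CPM in the libraries labelled shMif, against 19.5 and 18.3 CPM in shSCR, with overlap (log2 fold change 0.08 ± 0.17 SE with adjusted p = 0.908 in edgeR), and its sign turned to -0.031 within the 5 libraries of the higher olfactory read class.

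Among the sterol enzymes, Msmo1 had 80.4 and 105 CPM in the libraries labelled shMif, against 50.1 and 58.2 CPM in shSCR (log2 fold change 0.77 ± 0.19 SE with adjusted p = 0.424 in edgeR). Nsdhl had 23.4 and 32.4 CPM in the libraries labelled shMif, against 14.7 and 19.6 CPM in shSCR (log2 fold change 0.70 ± 0.23 SE with adjusted p = 0.484 in edgeR), and Lss had 23.8 and 37.7 CPM in the libraries labelled shMif, against 21.0 and 22.7 CPM in shSCR (log2 fold change 0.50 ± 0.23 SE with adjusted p = 0.554 in edgeR). In all 3 the libraries labelled shMif stood above shSCR. Sc5d had 21.5 and 26.1 CPM in the libraries labelled shMif, against 12.1 and 15.0 CPM in shSCR (log2 fold change 0.81 ± 0.18 SE with adjusted p = 0.407 in edgeR), and Sqle had 76.7 and 113 CPM in the libraries labelled shMif, against 52.3 and 66.1 CPM in shSCR (log2 fold change 0.68 ± 0.22 SE with adjusted p = 0.476 in edgeR). Insig1 and Sc5d had the smallest adjusted p of the set. Insig1 had 45.1 and 49.7 CPM in the libraries labelled shMif, against 25.4 and 28.9 CPM in shSCR (log2 fold change 0.80 ± 0.18 SE with adjusted p = 0.407 in edgeR), and Srebf2 had 300.4 and 362 CPM in the libraries labelled shMif, against 177 and 247 CPM in shSCR (log2 fold change 0.64 ± 0.19 SE with adjusted p = 0.462 in edgeR). Stard4 had 28.5 and 45.4 CPM in the libraries labelled shMif, against 17.2 and 22.2 CPM in shSCR (log2 fold change 0.91 ± 0.26 SE with adjusted p = 0.456 in edgeR). None of these overlapped between the groups. Abca1 overlapped at 107 and 102 CPM in the libraries labelled shMif, against 133 and 102 CPM in shSCR (log2 fold change -0.17 ± 0.37 SE with adjusted p = 0.911 in edgeR), with a log2 fold change of -0.35 to 0.03 when 1 library at a time was left out.

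The effects in the guide pair and the hairpin pair were then compared in 1 test. The difference, sgMif against sgSCR minus labelled shMif against shSCR, was called for 0 of the 30 genes by edgeR, where 0.00613% of all genes were called higher and 0.0858% lower. At an unadjusted p under 0.05, 6 were higher and 1 lower, where 8.93% and 6.83% of all genes were, and DESeq2 called 3 higher and 1 lower, where it called 4.01% of all genes. Pmvk had the smallest adjusted p, with a difference of 1.41 ± 0.24 SE (edgeR adjusted p = 0.0878), and passed without shSCR 2 (adjusted p = 0.0350). Acat2 differed by 1.14 ± 0.24 SE (adjusted p = 0.131), Hsd17b7 by 1.15 ± 0.33 SE (adjusted p = 0.189) and Abca1 by -1.59 ± 0.52 SE (adjusted p = 0.224). Values near 0 were found for Sc5d (0.12 ± 0.26 SE), Mvd (0.17 ± 0.55 SE), Insig1 (0.22 ± 0.25 SE) and Srebf2 (0.25 ± 0.27 SE). Their SE of 0.25 to 0.55 leaves room for differences of that size on the log2 scale.

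Over both systems, the Mif-targeted libraries were set against the controls with the system as a term. Mif itself did not pass there (log2 fold change -0.52 ± 0.26 SE with adjusted p = 0.678 in edgeR). No gene of all those tested passed by edgeR, so that 0 of the 30 did, where the share over all genes was 0% in each direction. At an unadjusted p under 0.05, 18 of the 30 were higher and 3 lower, where 4.27% and 3.73% of all genes were, and DESeq2 called 16 higher and 0 lower, where it called 1.71% of all genes. Taking the mean of the guide and hairpin contrasts in the fit of group means, an alternative, called 8. The share of all genes called that way was not worked out, so the 8 have no background to be set against. All 4 Mif-targeted libraries lay above all 4 controls for Acat2, Msmo1, Sc5d, Srebf2 and Stard4, 5 of the 30, where 1.64% of all genes did, and below all 4 for Npc1 alone, where 1.77% did. The joint log2 fold changes of those 6 were 1.18 ± 0.23 SE for Acat2, 1.10 ± 0.17 for Msmo1, 0.87 ± 0.13 for Sc5d, 0.77 ± 0.15 for Srebf2, 1.22 ± 0.21 for Stard4 and -0.34 ± 0.12 for Npc1. Their adjusted p ranged from 0.133 for Sc5d to 0.496 for Npc1.

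The guide and hairpin controls differed from each other in a few of these genes. In shSCR against sgSCR 1 of the 30 rose and 2 fell, where 2.23% and 1.79% of all genes did. Hsd17b7 had 88.2 and 124 CPM in shSCR, against 42.3 and 33.1 CPM in sgSCR, a 2.81-fold rise (log2 fold change 1.49 ± 0.24 SE with adjusted p = 0.0211 in edgeR). Mvk had 6.22 and 10.6 CPM in shSCR, against 18.0 and 22.4 CPM in sgSCR, and fell 2.40-fold (log2 fold change -1.26 ± 0.26 SE with adjusted p = 0.0417 in edgeR). Insig1 had 25.4 and 28.9 CPM in shSCR, against 58.7 and 44.1 CPM in sgSCR, and fell 1.89-fold (log2 fold change -0.92 ± 0.18 SE with adjusted p = 0.0368 in edgeR). For these 3 genes the groups did not overlap, and over the 30 genes shSCR lay above sgSCR for 5, where 28.4% of all genes did, and below it for 13, where 26.3% did. At an unadjusted p under 0.05, 4 were higher and 8 lower, where 12.9% and 10% of all genes were, and DESeq2 called 2 higher and 5 lower, where it called 11.9% of all genes. The median over the 19 enzymes was -0.43, against -0.04 over all genes, and 15 of the 19 were negative. With 1 library left out, the share of all genes called was not worked out. Without sgSCR 1 or without sgSCR 2 no gene of the 30 passed, and the 2 falls became 1 without either sgMif library, 0 without either library labelled shMif, 0 without shSCR 1 and 4 without shSCR 2.

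Between the libraries labelled shMif and sgMif, 5 of the 30 fell and 1 rose, where 0.834% and 1.18% of all genes did. This comparison uses the same sgMif libraries as sgMif against sgSCR, so the 2 sets of values are not independent. Acat2 had 41.4 and 53.4 CPM in the libraries labelled shMif, against 119 and 128 CPM in sgMif (log2 fold change -1.38 ± 0.17 SE with adjusted p = 0.0138 in edgeR). Pmvk fell by 1.24 on the log2 scale (adjusted p = 0.0183), Insig1 by 1.14 (adjusted p = 0.0279), Msmo1 by 1.08 (adjusted p = 0.0353) and Hmgcs1 by 1.36 (adjusted p = 0.0374). Abca1 rose 3.80-fold, at 107 and 102 CPM in the libraries labelled shMif, against 39.3 and 16.1 CPM in sgMif (log2 fold change 1.93 ± 0.38 SE with adjusted p = 0.0495 in edgeR). At an unadjusted p under 0.05, 4 were higher and 18 lower, where 7.96% and 7.67% of all genes were, and DESeq2 called 2 higher and 14 lower, where it called 6.94% of all genes. The libraries labelled shMif lay below both sgMif libraries for 22 of the 30 genes, where 24.7% of all genes did, and above both for Cyp51, Npc1, Npc2 and Abca1, where 23% did. Without sgMif 2 or labelled shMif 1 no gene fell, without sgMif 1 only 1 did, without labelled shMif 2 there were 2, and without either shSCR library there were 11. The rise of Abca1 was lost without sgMif 2, either sgSCR library or either library labelled shMif. The share of all genes called in fits with 1 library left out was not worked out.

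Cyp51 and Hsd17b7 stood apart from the other enzymes in which libraries were high. Cyp51 was higher in all 4 hairpin libraries, whichever the Mif label, than in all 4 guide libraries, as 6.14% of all genes were. Its difference between systems did not pass (shSCR against sgSCR log2 fold change 1.51 ± 0.55 SE with adjusted p = 0.156 in edgeR; labelled shMif against sgMif log2 fold change 1.72 ± 0.55 SE with adjusted p = 0.179 in edgeR). Cyp51 shares 166 bases with Akap9 on the opposite strand, a gene of 98.9 to 174 CPM. Hsd17b7 had 98.0 and 140.4 CPM in the libraries labelled shMif, against 88.2 and 124 CPM in shSCR, so that the 2 sgSCR libraries were the lowest of the 8. Mvk, Tm7sf2, Ebp and Mylip were lower in all 4 hairpin libraries than in all 4 guide libraries, 4 of the 30, where 6.07% of all genes were.

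Libraries of 1 group were not alike for these genes. Labelled shMif 2 exceeded labelled shMif 1 for 19 of the 19 enzymes, with a median log2 difference of 0.38, and shSCR 2 exceeded shSCR 1 for 16, with a median of 0.28. In sgSCR the second library was higher for 2 of 19 (median -0.33), and in sgMif for 9 of 19 (median -0.00). The same median over all genes lay between -0.01 and 0.05. sgMif 1 was the highest of the 8 libraries for 8 enzymes and sgMif 2 for 7, while shSCR 1 was the lowest for 13. shSCR 1 also had the lowest share of mitochondrial reads, 1.63% against 2.12 to 2.65% in the other 7, and the highest share on retained-intron transcripts, 5.41% against 3.90 to 4.84%. The part of these library differences in the sterol values was not tested.

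Within the olfactory read classes the medians of the enzymes had the same signs as over all libraries. Among libraries over 1000 CPM, sgMif 1 against the 2 sgSCR libraries gave a median log2 difference of 1.27 over the 19 enzymes, with 16 positive. Labelled shMif 1 against shSCR 1 gave 0.46 with 16 positive, and labelled shMif 2 against shSCR 2, both under 1000 CPM, gave 0.71 with 19 positive. shSCR 1 against the 2 sgSCR libraries gave -0.52 with 4 positive. Labelled shMif against sgMif gave -1.18 with 3 positive in the class over 1000 CPM and -0.81 with 2 positive in the class under it. These values rest on 1 or 2 libraries a side and carry no test.

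Per length of transcript, Fdps had the highest group mean of the 30 in every group. It stood at 567 and 479 TPM in sgMif and 171 and 126 in sgSCR. In the libraries labelled shMif it stood at 179 and 254 TPM, and in shSCR at 116 and 134. Srebf2 came next by group mean, at 213 and 163 TPM in sgMif, 146 and 107 in sgSCR, 184 and 148 in the libraries labelled shMif and 113 and 75.5 in shSCR. The ranges of Fdps and Srebf2 overlap in sgSCR and in the libraries labelled shMif. Msmo1 and Hmgcs1 followed within sgMif, at 159 and 169 and 142 and 166 TPM, and their ranges overlap each other and that of Srebf2. The lowest level in sgMif was that of Abcg1 (0.800 and 0.414 TPM). Cyp51 (4.99 and 2.16 TPM), Abca1 (6.19 and 2.54 TPM) and Tm7sf2 (3.15 and 5.90 TPM) came next, and their levels overlap.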

How the data were processed

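Sarcoma cells sorted from mouse tumours were measured by bulk RNA sequencing, 2 libraries in each of sgMif, sgSCR, shMif and shSCR, grouped by sample title. Per the submitters' processing notes, the authors used Trimmomatic, Salmon and build mm10. Their versions, the Salmon index, the strandedness and the read length are not stated there. For each of 116546 transcripts the deposited tables give an estimated count of reads and a TPM value relative to effective length, per the file headers. Transcripts were joined to GENCODE M21 genes (569 unmatched, 0.101 to 0.205% of reads), and estimated counts were summed per gene and rounded.

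Genes were kept with filterByExpr of edgeR 4.0.16 (minimum count 10, minimum total 15), and scaled by TMM. The quasi-likelihood F test of edgeR was run in R 4.3.3 and its p-values were adjusted by Benjamini-Hochberg over 16309 genes, at 0.05. The reported pairs of groups and the difference of effects were tested within a single model holding a mean per group (4 residual degrees of freedom). The joint effect was tested within a model of system and Mif label (5). SE is the log2 fold change divided by the root of the F statistic. CPM values were computed in R with the scaling factors of edgeR. Values of log2(CPM + 1) within groups, medians and overlaps were computed here with Python 3.11.15, pandas 2.3.3 and numpy 2.4.6. DESeq2 1.42.0 was an alternative. Near copies were sought by sequence search (at least 95% identity over 200 bases). The fits were tested on simulated data.

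The members, lists and alternatives were chosen with earlier results of these data known. Values per library are given for each member called in any comparison and for the highest and lowest log2 fold change of sgMif against sgSCR in each role, and for the 2 smallest p in each further list of the pathway. Any other gene was chosen after its values were seen. Alternatives were relative log expression scaling, DESeq2, no filter, length-scaled counts, protein-coding transcripts only, a replicate block, the 4 libraries compared alone, a term for libraries over 1000 CPM of olfactory receptor reads, and leaving out each library in turn. For the joint effect, the mean of the guide and hairpin contrasts in the fit of group means was a further alternative. The 5 libraries over 1000 CPM alone were an alternative added after seeing the data. Replicate numbers were taken as names only, since each comparison has 2 pairs and nothing in the labels ties the numbers together.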

Additional observations from a re-analysis of the deposited data

How the results depend on the processing

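Counts of the 30 genes called moved with the setting. The shares of all genes called by the main edgeR fit and by DESeq2 are given above with each comparison. They were not worked out for the other settings. A setting that calls more of all genes can therefore not be told from one that calls more of these 30. In sgMif against sgSCR, where 10 rose and 0 fell, DESeq2 gave 17 and 1 and no filter on low counts 18 and 1. The 5 libraries of the higher olfactory read class hold 1 library of each group other than sgSCR. Their spread rests on the 2 sgSCR libraries alone, so no conclusion is drawn from a count of calls there. Such a count is given below for labelled shMif against sgMif only, where 1 library stands against 1. Length-scaled counts left 2 rises and the class term 3. The replicate block gave 16 rises and 1 fall there, 2 rises and 3 falls in shSCR against sgSCR, and 2 rises and 10 falls in labelled shMif against sgMif, and these included all 10, 3 and 6 genes called without it. It gave 0 calls in the other 3 comparisons. Same-numbered libraries deviated together across 16309 genes with r of 0.17 in the guide pair and 0.25 in the hairpin pair, over 2 pairs each.

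For labelled shMif against shSCR, 0 rises became 4 with DESeq2 and 11 with no filter. For the difference of effects, 0 higher became 3 with DESeq2 and 7 with no filter. There, 0 lower became 1 with DESeq2 and 1 with no filter. For the joint effect, 0 higher became 16 with DESeq2, 19 with no filter and 8 with the mean of separate contrasts, and 0 lower became 1 with no filter.

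In shSCR against sgSCR, 1 rise became 2 with DESeq2, 2 with no filter and 0 with the 4 libraries alone. The 2 falls became 5 with DESeq2 and 4 with no filter. They became 1 with length-scaled counts, 1 with protein-coding transcripts only and 0 with the 4 libraries alone. In labelled shMif against sgMif, 1 rise became 2 with DESeq2, 2 with no filter and 0 with relative log expression, length-scaled counts, protein-coding transcripts only or the 4 libraries alone. The 5 falls became 14 with DESeq2, 15 with no filter, 2 with length-scaled counts, 9 with the class term, 8 with the 4 libraries alone and 12 with the 5 libraries.

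When 1 library at a time was left out, the counts ranged over 0 to 15 rises in sgMif against sgSCR, 0 to 3 rises in labelled shMif against shSCR, 0 to 1 higher for the difference, 0 to 1 rises and 0 to 4 falls in shSCR against sgSCR, and 0 to 1 rises and 0 to 11 falls in labelled shMif against sgMif. The joint effect stayed at 0 to 0. The remaining library of a group was then assumed to vary like the other groups.

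Some signs turned. In sgMif against sgSCR this held for Scap (-0.0012 with relative log expression, -0.0013 with DESeq2, -0.023 with protein-coding transcripts, -0.029 with the class term), Tm7sf2 (-0.0082 with the 5 libraries), and, with length-scaled counts, Ebp (0.28), Hsd3b7 (0.065) and Dhcr7 (-0.80). In labelled shMif against shSCR it held for Pmvk (-0.031) and Mif (0.70, edgeR adjusted p = 0.0377), both with the 5 libraries. In shSCR against sgSCR it held for Lss (0.098 with length-scaled counts) and Stard4 (0.0061 with no filter). Leaving out 1 library gave -0.082 to 0.13 for Scap and -0.22 to 0.15 for Ggps1 in sgMif against sgSCR. It gave -0.12 to 0.44 for Hsd17b7, -0.35 to 0.028 for Abca1 and -0.59 to 0.55 for Mif in the hairpin pair. It gave -0.27 to 0.045 for Lss and -0.22 to 0.26 for Stard4 in shSCR against sgSCR, and -0.60 to 0.17 for Mvk in the difference. The cause was not tested in any of these. With 2 libraries a group and 4 residual degrees of freedom, the number of libraries limits the precision, and the read depth put all 30 genes past the filter.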

Other observations

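Some of the 30 genes hold many reads on transcripts that code for no protein, by GENCODE's transcript types. Over the 8 libraries that share was 8.62 to 56.1% for Tm7sf2, 13.1 to 50.8% for Ebp, 18.4 to 44.5% for Npc2, 24.6 to 44.4% for Lss and 13.9 to 38.4% for Msmo1. For Lss, which was called higher in sgMif, the share was 30.4 and 30.3% in sgMif, against 24.6 and 44.4% in sgSCR, and with protein-coding transcripts alone its log2 fold change was 1.34 ± 0.30 SE and its call was lost (edgeR adjusted p = 0.0901). The calls of Insig1 and Stard4, with at most 4.05 and 5.01% on such transcripts, were lost there as well (edgeR adjusted p = 0.0568 and 0.0564). Msmo1 kept its call. Acat2 had 0% on such transcripts in all 8 libraries.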
